A study of Homo sapiens with 6 samples.

Results

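The 50 genes described here carry out DNA replication and supply its building blocks: they encode the proteins that license and fire replication origins, the polymerases and their clamp, the proteins that bind and join single strands, enzymes of deoxynucleotide supply, G1/S cell cycle factors, and proteins that follow the fork onto chromatin. They were chosen by gene symbol for these known roles, with earlier results of these data known. All 50 were found among the 57500 genes counted in each library. RNA was sequenced from HepG2 cells, an established hepatocarcinoma line with the labelled genotype WT, after 24 h with vehicle or with glycine (10 mM), with 3 libraries per group. Both groups were the same line and differed in the treatment alone, and the study's methods define independent experiments as those done on different days. Counts per library ran from 34960947 to 35861020 with vehicle and from 31795489 (glycine 1) to 58815986 (glycine 2) with glycine. The study also followed growth of these cells under glycine and reported that their proliferation rose. Its standard culture medium already contains glycine, and it tested hallmark gene sets in its glycine RNA data. The comparison here asks how the transcripts of the replication machinery stood after 24 h.

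Replication begins in G1 phase, when the origin recognition complex, CDC6 and CDT1 load the MCM2-7 ring onto DNA. CDC45 and the GINS complex then join the ring to form the active helicase, primase and polymerase alpha start each strand, and polymerases delta and epsilon extend it on the PCNA clamp. Ribonucleotide reductase, thymidylate synthase and their partners provide the deoxynucleotides, and many of these genes are classical targets of the E2F factors, switched on as cells enter S phase. Hepatocytes of the adult liver rarely divide and keep most of these genes low, whereas HepG2 cells divide in culture.

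The replication genes stood slightly higher with glycine. In the edgeR quasi-likelihood test, 14 of the 50 rose and 0 fell at an adjusted p under 0.05, or 28% of the group, where 6.71% of the 15492 tested genes were called higher and 6.54% lower. All 50 had enough counts to be tested. At an unadjusted p under 0.05 there were 28 members, of which 1 was lower, where 27.3% of all tested genes stood in either direction and 13% were lower. Of the members, 0 were called lower with DESeq2 and with limma as well. The fitted change was above 0 in 45 members and below 0 in 5. The median log2 change (glycine minus vehicle) of the 50 was 0.17, or 12.4%, against 0.00 over all tested genes. Every glycine library lay above every vehicle library in 30 members, or in 17.2% of all tested genes, and the reverse held in 2 members, RFC1 and E2F1, or in 14.4% of all tested genes. The rises were small. Called members ranged from a log2 change of 0.23 to 0.42, the median absolute change of all called genes was 0.40, and 0 members reached 1.5-fold in either direction. A larger share of cells in S phase and more of these transcripts per cell cannot be told apart in bulk RNA.

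Summed over the 50 genes, the level was 4595, 4517 and 4588 CPM (counts scaled to a common library size) in the vehicle libraries and 5154, 5186 and 5000 CPM in the glycine libraries. The median member stood at log2 values of 0.02, -0.01 and -0.01 relative to its own vehicle mean in the vehicle libraries and at 0.18, 0.18 and 0.12 in the glycine libraries. Glycine 3 was thus the nearest of the treated libraries to the controls, yet it too stood above all of them. The highest of the 6 values fell in glycine 2 for 21 members, in glycine 1 for 16 and in glycine 3 for 6, leaving 7 members with their highest value in a vehicle library. Leaving out 1 library changed the number of calls: 7 members were called higher without glycine 1, 6 without glycine 2, 10 without glycine 3, 7 without vehicle 1, 14 without vehicle 2 and 12 without vehicle 3. Over all tested genes, in the same order, 594, 617, 587, 590, 926 and 860 were called higher, against 1040 with all libraries. The median change of the members ran from 0.14 to 0.18 in these fits.

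**Figure D1:**
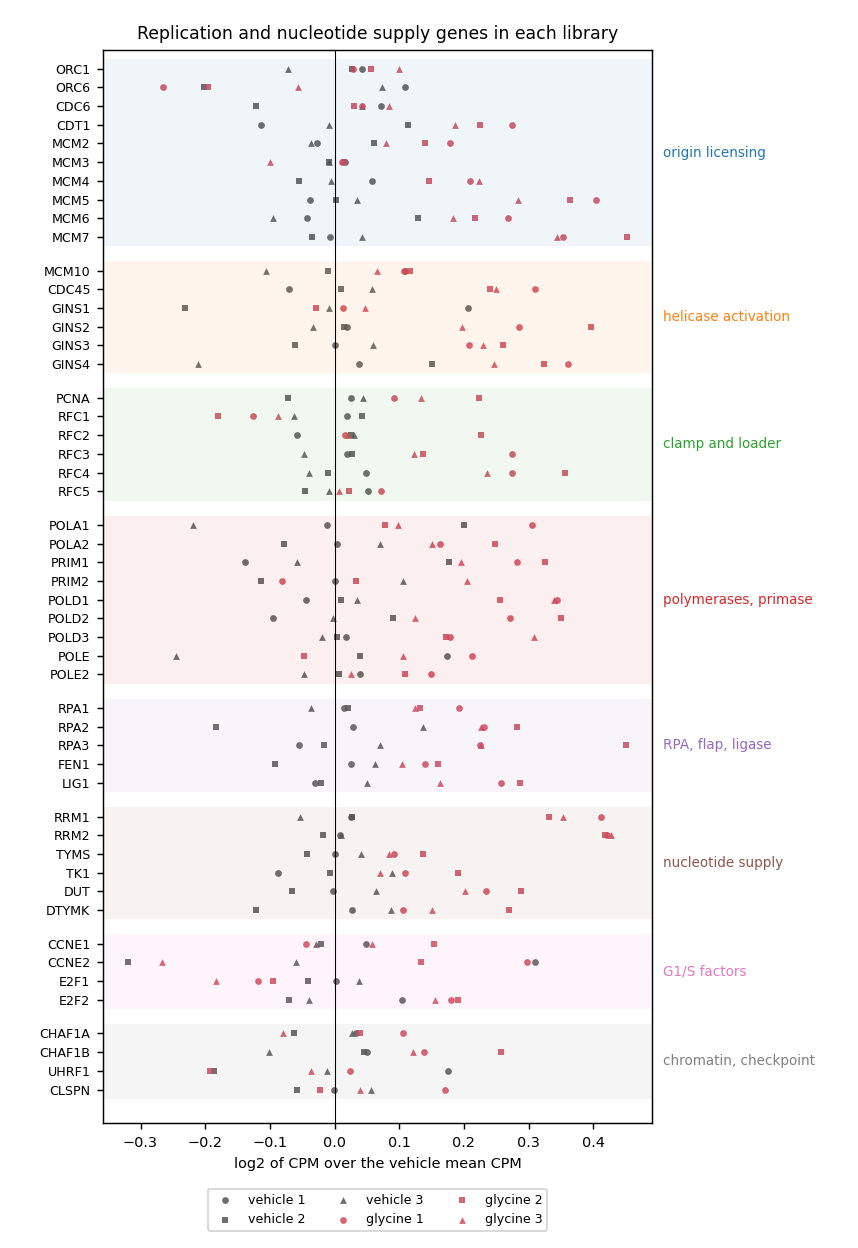
Each row is 1 gene and each point 1 library, placed on the x axis by the log2 of its CPM over the gene's vehicle mean, with vehicle in grey and glycine in red and the rows banded by role. In 30 genes the 3 red points lie to the right of the 3 grey ones, and the 3 glycine points of RRM2 nearly coincide.

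Ribonucleotide reductase, which makes deoxynucleotides from ribonucleotides, held 2 of the 3 smallest p values of the group. RRM2 (ENSG00000171848, chromosome 2, 10122328 to 10131419), its small subunit and the one that rises in S phase, was at 197, 194 and 197 CPM in the vehicle libraries and at 263, 262 and 264 CPM in the glycine libraries. The groups lay far apart next to a spread of a few CPM within each. Its log2 change was 0.42 ± 0.058 (SE, edgeR adjusted p = 0.000362), or 34.0% higher. RRM1 (ENSG00000167325, chromosome 11, 4094707 to 4138876), the large catalytic subunit, was at 93, 93.1 and 88 CPM and at 122, 115 and 117 CPM, also without overlap, and its log2 change was 0.37 ± 0.06 (SE, edgeR adjusted p = 0.00138). The pair rose together: per length (counts per kilobase of the gene's counted length, scaled as CPM), RRM2 stood 1.81 ± 0.071 times as high as RRM1 with vehicle and 1.88 ± 0.053 times with glycine (SD, n = 3), a difference within the spread. Both calls held in all 17 alternative fits. The promoter windows of RRM2 and RRM1, taken from RefSeq (GRCh38.p14), are shown because of these p values, as stretches 5′ to 3′ on the plus strand with CCAAT boxes, a 7-letter E2F core and a CHR element (TTTGAA or its reverse complement) in capitals. The RRM2 window overlaps an annotated exon, and so does that of MCM7, so short stretches of them are printed.
RRM2 chr2:10122604-10122633: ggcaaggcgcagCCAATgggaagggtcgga
RRM2 chr2:10122664-10122693: gcaccaaagCCAATgggaagggccgggagc
RRM1 chr11:4094435-4094684: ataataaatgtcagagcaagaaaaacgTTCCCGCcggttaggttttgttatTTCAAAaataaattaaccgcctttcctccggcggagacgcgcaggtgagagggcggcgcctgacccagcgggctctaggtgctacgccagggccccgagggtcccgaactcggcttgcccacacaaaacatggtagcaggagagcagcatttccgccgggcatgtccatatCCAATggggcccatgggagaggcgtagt
The RRM2 window held 3 CCAAT boxes, at 123, 93 and 66 bases before the start, and no E2F letters. This RefSeq start lies inside the counted span of RRM2, and bases around a start further 5′ were not read. In RRM1 the E2F core TTCCCGC began 223 bases before the start, the CHR letters 199 before on the opposite strand and a single CCAAT box 28 before.

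Of the 4 other nucleotide supply genes, 1 was called higher, beside 6.71% of all tested genes. DUT (ENSG00000128951, chromosome 15, 48331011 to 48343373) encodes dUTPase, which keeps uracil out of DNA. It was at 62.2, 59.5 and 65.2 CPM with vehicle and 73.2, 76.1 and 71.6 CPM with glycine, all treated libraries above all controls, and its log2 change was 0.24 ± 0.063 (SE, edgeR adjusted p = 0.0226). An antisense gene covers 14.5% of its exon length, and whether reads were counted by strand is not given in the sources used here. The thymidine branch was not called. TYMS (ENSG00000176890, chromosome 18, 657604 to 673578), thymidylate synthase, was at 173, 168 and 178 CPM and 185, 191 and 184 CPM, close to each other but without overlap, and its log2 change was 0.10 ± 0.059 (SE, edgeR adjusted p = 0.281). Other genes cover 26.2% of its exons. TK1 (ENSG00000167900, chromosome 17, 78174075 to 78187233), the S-phase thymidine kinase, stood at 176, 187 and 199 CPM and 202, 214 and 197 CPM, so that the groups overlapped, and its log2 change was 0.12 ± 0.067 (SE, edgeR adjusted p = 0.254). DTYMK (ENSG00000168393, chromosome 2, 241675742 to 241686991), which phosphorylates thymidylate, had a log2 change of 0.18 ± 0.071 (SE, edgeR adjusted p = 0.122). DUT lost its call without glycine 1, glycine 2, glycine 3, vehicle 1 or vehicle 2 (edgeR adjusted p from 0.0601 to 0.0904).

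Of the 10 licensing genes, 3 rose, beside 6.71% of all tested genes, and 7 were not called, with a median log2 change of 0.16. MCM7 (ENSG00000166508, chromosome 7, 100092728 to 100101940), a subunit of the ring and the host of an oncogenic microRNA cluster, was at 284, 278 and 293 CPM in the vehicle libraries and 364, 389.9 and 362 CPM in the glycine libraries, and its log2 change was 0.38 ± 0.064 (SE, edgeR adjusted p = 0.00154). MCM5 (ENSG00000100297, chromosome 22, 35400063 to 35425430) went from 182, 187 and 191 CPM to 247, 240.2 and 227 CPM, with a log2 change of 0.35 ± 0.062 (SE, edgeR adjusted p = 0.00225). In both subunits the lowest glycine library was well above the highest vehicle library, and neither call was lost in any of the 17 alternative fits. CDT1 (ENSG00000167513, chromosome 16, 88803213 to 88809258), the loading factor that geminin inhibits, was at 118, 138 and 126 CPM and 154, 149 and 145 CPM. Its groups did not overlap but came close, and its log2 change was 0.23 ± 0.069 (SE, edgeR adjusted p = 0.0436). CDT1 lost its call without glycine 1, glycine 2, glycine 3, vehicle 1 or vehicle 3 (edgeR adjusted p from 0.0794 to 0.196). The MCM7 window is shown in 4 stretches of its own strand, the minus strand of chromosome 7, with E2F cores and CCAAT boxes or their reverse complements in capitals.
MCM7 chr7:100101567-100101596: ccagctcggaccGCGGGAAacccggcgcct
MCM7 chr7:100101475-100101504: gcccgcacggtgATTGGcttgcggctagcg
MCM7 chr7:100101431-100101460: ccgccttgtccgATTGGcccgcacgcagtg
MCM7 chr7:100101398-100101417: ggggggcgacgtTTCGCGCc
The last stretch ends at the base before the RefSeq transcription start, and its E2F core begins 8 bases before that start. This start lies inside the counted span of MCM7. A further core, read on the opposite strand and overlapping the printed one, and a further CCAAT box overlap the start and are not shown.

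The fitted changes of the ring subunits ran from -0.02 for MCM3 to 0.38 for MCM7. MCM3 (ENSG00000112118, chromosome 6, 52264009 to 52284881), the most abundant subunit per length, was at 455, 448 and 448 CPM with vehicle and 454, 455 and 420 CPM with glycine. Its groups overlapped, and its log2 change was -0.02 (-0.16 to 0.12, 95% interval, edgeR adjusted p = 0.86). MCM2 (ENSG00000073111, chromosome 3, 127598223 to 127622436), MCM4 (ENSG00000104738, chromosome 8, 47960185 to 47978160) and MCM6 (ENSG00000076003, chromosome 2, 135839626 to 135876426) lay between, with log2 changes of 0.13, 0.19 and 0.22. All treated libraries of these 3 genes were above all controls, but their edgeR adjusted p values were 0.196, 0.0568 and 0.0532, and MCM6 passed the threshold without vehicle 2 (edgeR adjusted p = 0.0158). Of the summed ring transcripts per length, MCM3 made up 38.9% ± 0.355 with vehicle and 34.2% ± 0.533 with glycine (SD, n = 3). MCM7 went the other way, from 20.5% ± 0.594 to 23.9% ± 0.782, and MCM5 from 8.02% ± 0.211 to 9.15% ± 0.175. The values of the 2 groups did not overlap for any of these 3 shares, which were not tested. MCM6 had the smallest share in both groups, 4.66% ± 0.382 and 4.86% ± 0.0973.

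Among the members, the recognition and loading genes other than CDT1, here ORC1, ORC6 and CDC6, were not called. ORC1 (ENSG00000085840, chromosome 1, 52372829 to 52404459), the cell cycle regulated subunit of the origin recognition complex, had a log2 change of 0.06 ± 0.067 (SE, edgeR adjusted p = 0.598). ORC6 (ENSG00000091651, chromosome 16, 46689643 to 46698394), the smallest subunit, had the lowest value of the 50 genes, a log2 change of -0.17 (-0.36 to 0.02, 95% interval, edgeR adjusted p = 0.246). Its libraries overlapped, at 32.2, 25.9 and 31.4 CPM with vehicle and 24.8, 26 and 28.7 CPM with glycine. CDC6 (ENSG00000094804, chromosome 17, 40287633 to 40304657), the ATPase that recruits the ring, had a log2 change of 0.05 ± 0.066 (SE, edgeR adjusted p = 0.665).

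**Figure D2:**
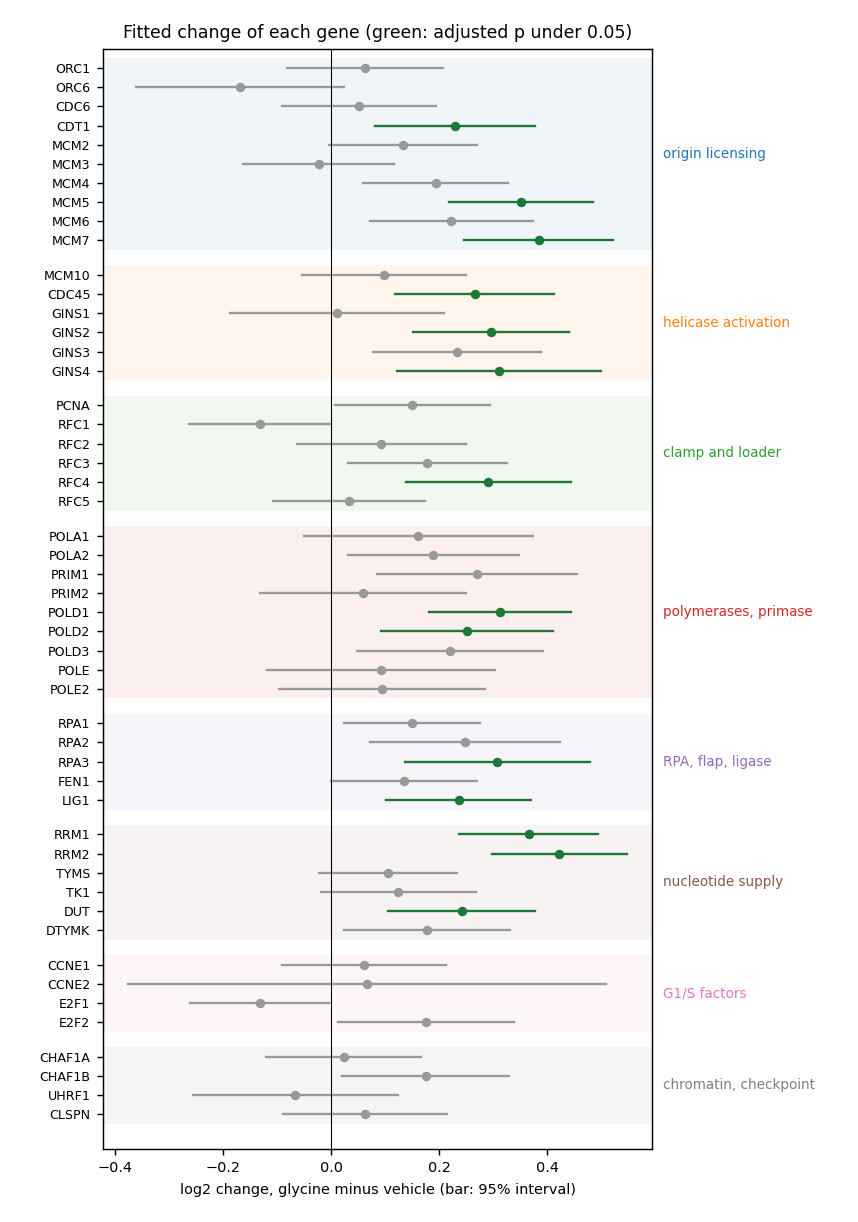
The log2 change of each gene (x axis, glycine minus vehicle) with its 95% interval, in the same order and bands by role, where green marks an adjusted p under 0.05. The 14 green points all lie to the right of 0, and the highest is RRM2 at 0.42.

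Genes that turn the loaded ring into a helicase had the highest median of any role, 0.25. Of these 6 genes, 3 were called higher, beside 6.71% of all tested genes. CDC45 (ENSG00000093009, chromosome 22, 19479459 to 19520612), a subunit of the active helicase, was at 22.9, 24.2 and 25.1 CPM and 29.9, 28.5 and 28.6 CPM, with a log2 change of 0.27 ± 0.068 (SE, edgeR adjusted p = 0.0214). GINS2 (ENSG00000131153, chromosome 16, 85676198 to 85690073), of the GINS complex, was at 57.9, 57.7 and 55.8 CPM and 69.6, 75.2 and 65.5 CPM, with a log2 change of 0.30 ± 0.067 (SE, edgeR adjusted p = 0.0111). GINS4 (ENSG00000147536, chromosome 8, 41529206 to 41545046) was at 25.7, 27.8 and 21.6 CPM and 32.2, 31.4 and 29.7 CPM, with a log2 change of 0.31 ± 0.088 (SE, edgeR adjusted p = 0.033). In all 3 genes the treated libraries lay above the controls, and the vehicle libraries of GINS4 were the more scattered. The exons of GINS4 are shared with other genes over 23.6% of their length. GINS3 (ENSG00000181938, chromosome 16, 58295080 to 58406144) did not overlap either, at 16.6, 15.9 and 17.3 CPM and 19.2, 19.9 and 19.5 CPM, and missed the threshold with a log2 change of 0.23 ± 0.072 (SE, edgeR adjusted p = 0.0502). The fourth partner of the complex, GINS1 (ENSG00000101003, chromosome 20, 25407727 to 25452628), was at 53.6, 39.6 and 46.2 CPM and 46.9, 45.6 and 48 CPM. Its vehicle libraries spanned all of the glycine libraries, and its log2 change was 0.01 (-0.19 to 0.21, 95% interval, edgeR adjusted p = 0.96). MCM10 (ENSG00000065328, chromosome 10, 13161554 to 13211104), which helps to start the helicase, had a log2 change of 0.10 ± 0.07 (SE, edgeR adjusted p = 0.412). GINS2 lost its call without glycine 2 (edgeR adjusted p = 0.0537), CDC45 without glycine 1, glycine 3 or vehicle 1 (edgeR adjusted p from 0.0691 to 0.11), and GINS4 without glycine 1, glycine 2, glycine 3, vehicle 1 or vehicle 3 (edgeR adjusted p from 0.0617 to 0.118).

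The clamp and its loader held 1 call among 6 genes, a rise, beside 6.71% of all tested genes called higher. RFC4 (ENSG00000163918, chromosome 3, 186789880 to 186807058), a small subunit of the loader, was at 20.8, 19.9 and 19.5 CPM with vehicle and 24.3, 25.7 and 23.6 CPM with glycine, and its log2 change was 0.29 ± 0.071 (SE, edgeR adjusted p = 0.016). It lost its call without glycine 1 or glycine 2 (edgeR adjusted p from 0.0594 to 0.0721). PCNA (ENSG00000132646, chromosome 20, 5114953 to 5126626), the sliding clamp, was the most abundant of the plotted genes per length, at 218 CPM per kilobase with vehicle and 242 with glycine. It was at 326, 305 and 330.4 CPM and 342, 374 and 352 CPM, with the groups just apart, and its log2 change was 0.15 (0.01 to 0.29, 95% interval, edgeR adjusted p = 0.162). RFC1 (ENSG00000035928, chromosome 4, 39287456 to 39366375), the large subunit, lay the other way. It was at 131, 133 and 124 CPM and 118, 114 and 122 CPM, each treated library below each control, with a log2 change of -0.13 (-0.26 to 0.000535, 95% interval, edgeR adjusted p = 0.185). RFC3 (ENSG00000133119, chromosome 13, 33818049 to 33966558) had a log2 change of 0.18 ± 0.068 (SE, edgeR adjusted p = 0.106), without overlap. RFC2 (ENSG00000049541, chromosome 7, 74231499 to 74254458) and RFC5 (ENSG00000111445, chromosome 12, 118013588 to 118033130) had log2 changes of 0.09 and 0.03, with overlapping groups.

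**Figure D3:**
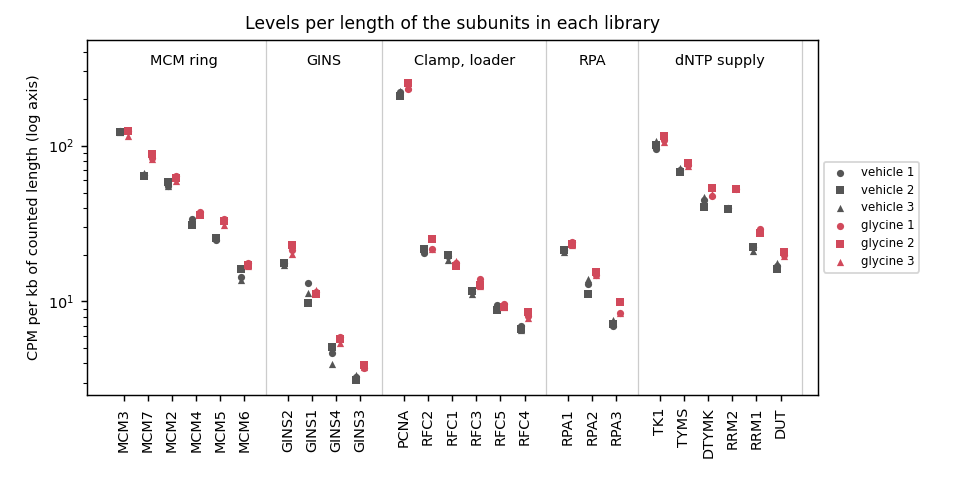
Levels of the subunits of the MCM ring, GINS, the clamp and loader and RPA, and of the nucleotide supply genes, in CPM per kilobase (log y axis), with 1 point per library. Within each complex the levels of the subunits span more than the difference between vehicle (grey) and glycine (red), with MCM3 at 123 and MCM6 at 14.8 CPM per kilobase in the vehicle mean.

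All 9 polymerase and primase genes had a fitted change above 0, as did 7867 of the 15492 tested genes. Beside 6.71% of all tested genes, 2 of the 9 rose, both subunits of polymerase delta. POLD1 (ENSG00000062822, chromosome 19, 50384204 to 50418018), its catalytic subunit, was at 69.1, 71.7 and 73 CPM and 90.4, 85 and 90.1 CPM. The groups were clearly apart, the log2 change was 0.31 ± 0.061 (SE, edgeR adjusted p = 0.00459), and the call held in all 17 alternative fits. Another gene on the same strand covers 8.77% of its exons. POLD2 (ENSG00000106628, chromosome 7, 44114681 to 44124358), an accessory subunit, was at 158, 179.7 and 168 CPM and 204, 215 and 184 CPM. The groups came close without overlap, and the log2 change was 0.25 ± 0.074 (SE, edgeR adjusted p = 0.0396), a call lost without glycine 1, glycine 2, vehicle 1 or vehicle 3 (edgeR adjusted p from 0.0684 to 0.172). POLD3 (ENSG00000077514, chromosome 11, 74493851 to 74669117) had a log2 change of 0.22 ± 0.08 (SE, edgeR adjusted p = 0.0886), with all treated libraries above all controls. PRIM1 (ENSG00000198056, chromosome 12, 56731596 to 56752373), the catalytic primase subunit, was at 20, 24.9 and 21.1 CPM and 26.7, 27.6 and 25.2 CPM, with a log2 change of 0.27 ± 0.086 (SE, edgeR adjusted p = 0.0553). It passed the threshold without vehicle 2 (edgeR adjusted p = 0.011). Its partner PRIM2 (ENSG00000146143, chromosome 6, 57314805 to 57646849) had overlapping libraries and a log2 change of 0.06. POLA1 (ENSG00000101868, chromosome X, 24693919 to 24996986) and POLA2 (ENSG00000014138, chromosome 11, 65261762 to 65305589), of polymerase alpha, had log2 changes of 0.16 and 0.19, and only POLA2 had groups that did not overlap. The polymerase epsilon genes POLE (ENSG00000177084, chromosome 12, 132623753 to 132687365) and POLE2 (ENSG00000100479, chromosome 14, 49643555 to 49688422) had log2 changes of 0.09 and 0.09, and their libraries overlapped. The edgeR adjusted p of PRIM2, POLA1, POLA2, POLE and POLE2 ran from 0.112 to 0.722.

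The 5 genes that cover and join single strands all had glycine libraries above every vehicle library, beside 17.2% of all tested genes. Called higher were 2 of the 5, beside 6.71% of all tested genes. RPA3 (ENSG00000106399, chromosome 7, 7636518 to 7718607), the smallest subunit of the single-strand binding protein RPA, was at 22.5, 23.1 and 24.6 CPM and 27.4, 32 and 27.4 CPM, with glycine 2 the highest, and its log2 change was 0.31 ± 0.08 (SE, edgeR adjusted p = 0.022). LIG1 (ENSG00000105486, chromosome 19, 48115445 to 48170603), the ligase that seals Okazaki fragments, was at 73.4, 73.9 and 77.6 CPM and 89.6, 91.4 and 83.9 CPM, and its log2 change was 0.24 ± 0.062 (SE, edgeR adjusted p = 0.0243). RPA2 (ENSG00000117748, chromosome 1, 27891524 to 27914746) was at 26, 22.4 and 28 CPM and 29.9, 31 and 29.8 CPM, with a wide vehicle spread and a log2 change of 0.25 ± 0.082 (SE, edgeR adjusted p = 0.0637), and it passed without vehicle 3 (edgeR adjusted p = 0.0217). RPA1 (ENSG00000132383, chromosome 17, 1829702 to 1900082), the large DNA-binding subunit, and FEN1 (ENSG00000168496, chromosome 11, 61792637 to 61797244), the flap nuclease, had log2 changes of 0.15 and 0.13 (edgeR adjusted p = 0.115 and 0.185). RPA3 lost its call without glycine 2 or vehicle 1 (edgeR adjusted p from 0.0929 to 0.104), and LIG1 without glycine 1, glycine 2, vehicle 1 or vehicle 2 (edgeR adjusted p from 0.0533 to 0.118).

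None of the 4 G1/S factors was called, with 2 at an unadjusted p under 0.05 in edgeR, 1 in each direction, where 27.3% of all tested genes passed. E2F1 (ENSG00000101412, chromosome 20, 33675683 to 33686404), the activator that drives many of these genes, was at 116, 112 and 119 CPM with vehicle and 106, 108 and 102 CPM with glycine. Each treated library was below each control, and the log2 change was -0.13 (-0.26 to -0.00326, 95% interval, edgeR adjusted p = 0.172). E2F2 (ENSG00000007968, chromosome 1, 23506430 to 23531220), a related activator at a lower level, was at 18.3, 16.2 and 16.6 CPM and 19.3, 19.4 and 18.9 CPM, in the opposite order and again without overlap, with a log2 change of 0.18 (0.01 to 0.34, 95% interval, edgeR adjusted p = 0.153). Per length, E2F1 stood 14.8 ± 0.953 times as high as E2F2 with vehicle and 11.96 ± 0.228 times with glycine (SD, n = 3), with no overlap between the groups and no test of that ratio. CCNE1 (ENSG00000105173, chromosome 19, 29811898 to 29824308), the more abundant cyclin E transcript here, had a log2 change of 0.06 ± 0.071 (SE, edgeR adjusted p = 0.631). CCNE2 (ENSG00000175305, chromosome 8, 94879770 to 94896678) was the lowest of the 50 genes, at 2.08, 1.35 and 1.61 CPM and 2.07, 1.84 and 1.4 CPM. Its smallest library held 47 counts, other genes cover 37.1% of its exon length, and its log2 change was 0.07 (-0.38 to 0.51, 95% interval, edgeR adjusted p = 0.875), an interval too wide to show a change of the size seen in RRM2.

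The chromatin and checkpoint genes had 0 calls in edgeR, with 1 of 4 at an unadjusted p under 0.05, where 27.3% of all tested genes passed. CHAF1B (ENSG00000159259, chromosome 21, 36385378 to 36419015), a subunit of the histone chaperone CAF-1, was at 30.6, 30.5 and 27.5 CPM and 32.5, 35.3 and 32.1 CPM, without overlap, with a log2 change of 0.17 ± 0.072 (SE, edgeR adjusted p = 0.134). Its partner CHAF1A (ENSG00000167670, chromosome 19, 4402662 to 4445018) had a log2 change of 0.02 ± 0.067 (SE, edgeR adjusted p = 0.865). UHRF1 (ENSG00000276043, chromosome 19, 4903080 to 4962154), which brings the maintenance methyltransferase to new DNA, varied among the controls more than between the groups, at 156, 122 and 137 CPM and 141, 121 and 135 CPM, with a log2 change of -0.07 (-0.26 to 0.12, 95% interval, edgeR adjusted p = 0.68). CLSPN (ENSG00000092853, chromosome 1, 35720218 to 35769967), the checkpoint mediator claspin, had a log2 change of 0.06 ± 0.071 (SE, edgeR adjusted p = 0.619).

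Other genes of the same pathways come from lists compiled from general knowledge, with earlier results of these data known. They are given for comparison, with no test of the difference between lists. Of 25 other replication genes, 4 rose and 0 fell in edgeR, beside 6.71% and 6.54% of all tested genes. At an unadjusted p under 0.05 stood 8, 0 of them lower, beside 27.3% of all tested genes. Their median log2 change was 0.06 over the 25. TIMELESS, of the fork protection complex, rose from 75.9, 72.7 and 69.1 CPM to 94.2, 88.8 and 86.1 CPM, a log2 change of 0.31 ± 0.065 (SE, edgeR adjusted p = 0.00751). ORC5 and ORC3, constant subunits of the origin recognition complex, had log2 changes of 0.30 ± 0.077 (SE, edgeR adjusted p = 0.0206) and 0.26 ± 0.071 (SE, edgeR adjusted p = 0.029), and RNASEH2A, which removes RNA from DNA, 0.28 ± 0.082 (SE, edgeR adjusted p = 0.0364). Of 21 other nucleotide supply genes, 3 rose and 0 fell, beside the same shares of all tested genes, with a median of 0.09. At an unadjusted p under 0.05 stood 8, 1 of them lower, beside the same 27.3%. DHODH, the mitochondrial enzyme of pyrimidine synthesis, was at 16.4, 15.1 and 16.3 CPM and 21.6, 22.2 and 20.7 CPM, every treated library above every control, and its log2 change of 0.43 ± 0.074 (SE, edgeR adjusted p = 0.00195) stood beside 0.42 for RRM2. DCK, deoxycytidine kinase, was not called, at 0.27 ± 0.094 (SE, edgeR adjusted p = 0.0774). RRM2B, the small reductase subunit that p53 induces, had overlapping groups and a log2 change of 0.05 ± 0.079 (SE, edgeR adjusted p = 0.741). Per length, RRM2 stood 5.63 ± 0.387 times as high as RRM2B with vehicle and 7.30 ± 0.621 times with glycine (SD, n = 3). This ratio was not tested. Fits that left out 1 library called 587 to 926 of all tested genes higher, against 1040. Called higher among the other replication genes were 0 without glycine 1, 2 without glycine 2, glycine 3, vehicle 1 or vehicle 2, and 3 without vehicle 3. Among the other supply genes 1 was called without glycine 1 or glycine 3. DHODH kept its call in each of these fits. Of the genes named, TIMELESS lost its call without glycine 1 (edgeR adjusted p = 0.0581), ORC5 without glycine 1, glycine 2, glycine 3 or vehicle 2 (edgeR adjusted p from 0.0579 to 0.0818), ORC3 without glycine 1, glycine 3, vehicle 1 or vehicle 3 (edgeR adjusted p from 0.0752 to 0.123) and RNASEH2A without glycine 1, glycine 2, vehicle 1 or vehicle 2 (edgeR adjusted p from 0.0654 to 0.154), and RNASEH2A also with thinned libraries (edgeR adjusted p = 0.0679), while DCK passed without vehicle 1 (edgeR adjusted p = 0.0319).

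Of 19 other genes of the E2F and RB families and cell cycle genes listed with them, 1 was called higher and 1 lower. These counts are close to the 6.71% and 6.54% of all tested genes, and the median log2 change was 0.02. CCNA2, the S and G2 phase cyclin A, rose from 99.2, 99.6 and 93.4 CPM to 127, 117 and 122 CPM, a log2 change of 0.32 ± 0.062 (SE, edgeR adjusted p = 0.00396). TFDP2, a dimer partner of the E2F factors, fell from 42.3, 41 and 40.2 CPM to 34.7, 35.6 and 35.4 CPM, a log2 change of -0.22 ± 0.062 (SE, edgeR adjusted p = 0.0305), and this call was lost without glycine 1, glycine 2, glycine 3, vehicle 1 or vehicle 2 (edgeR adjusted p from 0.0549 to 0.106). MYBL2 and E2F8 were not called, at 0.20 ± 0.078 (SE, edgeR adjusted p = 0.108) and 0.21 ± 0.098 (SE, edgeR adjusted p = 0.193). Of 20 genes of mitosis, all had a fitted change above 0, as did 7867 of the 15492 tested genes. Of these 20, 10 rose, beside 6.71% of all tested genes, with a median of 0.22 and a range of 0.09 to 0.38. CDC20, the activator of the anaphase-promoting complex, was at 94.9, 96 and 103 CPM and 128, 134 and 121 CPM, without overlap, with a log2 change of 0.38 ± 0.065 (SE, edgeR adjusted p = 0.00176). BUB1, TPX2 and PLK1, a checkpoint kinase, a spindle factor and a mitotic kinase, had log2 changes of 0.32 ± 0.063 (SE, edgeR adjusted p = 0.00529), 0.33 ± 0.071 (SE, edgeR adjusted p = 0.00891) and 0.29 ± 0.065 (SE, edgeR adjusted p = 0.0112). The number of mitosis genes called was 3 without glycine 1, 4 without vehicle 1, 5 without glycine 2 and 6 without glycine 3. Over all tested genes, in the same order, 594, 590, 617 and 587 were called higher, against 1040 with all libraries. TPX2 lost its call without glycine 1 (edgeR adjusted p = 0.0574) and PLK1 without glycine 1 or vehicle 1 (edgeR adjusted p from 0.0553 to 0.0689), MYBL2 passed without vehicle 2 (edgeR adjusted p = 0.0449), and CCNA2, CDC20 and BUB1 kept theirs.

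**Figure D4:**
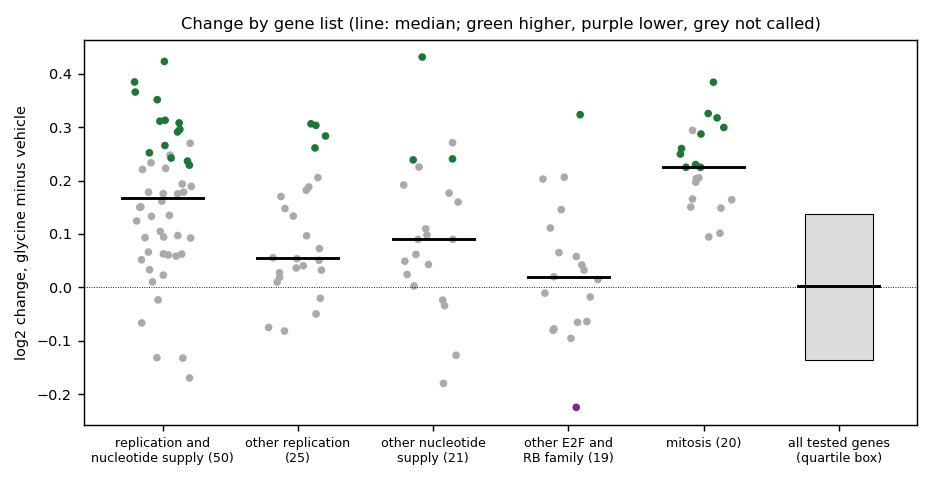
Log2 change (y axis, glycine minus vehicle) of each tested gene in the 50 replication and supply genes and in 4 other lists, with a line at each median, green for called higher and purple for called lower, and a quartile box for all tested genes. The medians are 0.17 for the 50 genes, 0.06, 0.09 and 0.02 for the next 3 lists and 0.22 for mitosis, against 0.00 for all tested genes.

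Promoter letters were read for the 43 members with a window in the RefSeq table, from 250 bases before to 50 after the start, on both strands. GINS4, RPA2, MCM5, POLD3, MCM4, CCNE2 and RPA3 had none there. The 8-letter E2F forms TTTCGCGC, TTTGGCGC, TTTCCCGC and TTTGCCGC were present in 21 of 43 windows (48.8%), in 5.28% of 11028 tested genes and in 3.33% of all 27305 genes with a window. The 7-letter core, which is each of those forms without its first T, was present in 72.1% of the members, 20.4% of tested genes and 13.1% of all. CCAAT was present in 58.1% of the members, 36.6% of tested genes and 35.7% of all, and the GC box GGGCGG in 72.1%, 69.6% and 44.6%. TTTGAA, the CHR letters, were in 1 member, RRM1, or 2.33%, and in 9.66% of tested genes and 15.4% of all. MCM6 had the most 8-letter E2F matches, with 4, where overlapping matches on opposite strands were counted separately.

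The changes of members with and without the E2F letters overlapped widely. The 21 with an 8-letter form had a median log2 change of 0.15, from -0.13 for E2F1 to 0.38 for MCM7, and 4 were called. The 22 without had a median of 0.14, from -0.17 for ORC6 to 0.42 for RRM2, and 7 were called. All of these calls were higher, beside 6.71% of all tested genes. The called members MCM5, GINS4 and RPA3 had no window and stand in neither group. The RRM2 window was read from a start inside its counted span, and bases further 5′ were not read. RRM2, POLD1, CDC45, DUT and POLD2 were called and held neither the 8-letter forms nor the core, while RRM1 and RFC4 held the core alone. A letter match is a description of the window and not a measured site.

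**Figure D5:**
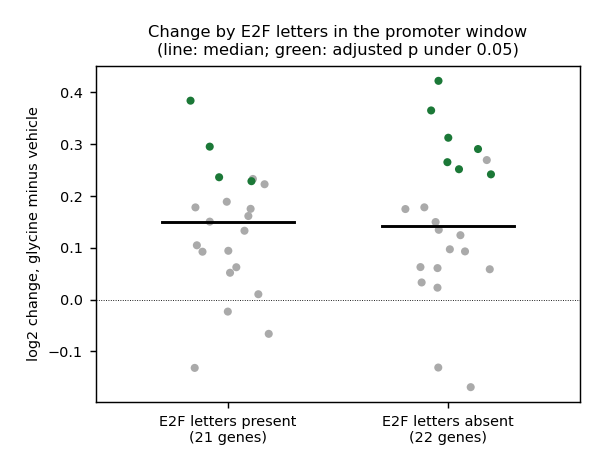
Log2 change (y axis) of the 43 members with a promoter window, split by whether an 8-letter E2F form is present, with a line at each median and green for an adjusted p under 0.05. The medians, 0.15 with the letters and 0.14 without, nearly coincide.

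Hepatocyte markers were present in every library, with none of the 10 at 0. Their summed level was 29650 to 33700 CPM with vehicle and 25470 to 29160 CPM with glycine. Called lower were 2 of 10, TTR and APOA1 (edgeR adjusted p = 0.00921 and 0.0483), beside 6.54% of all tested genes. The fitted change was below 0 in 8 of the 10, as in 7625 of the 15492 tested genes, with a median of -0.23. At an unadjusted p under 0.05 in edgeR stood 5, all of them lower, beside 13% of all tested genes. Of 11 markers of fibroblasts, leukocytes and endothelium, 6 could be tested. Of these 6, 2 were called higher (COL1A1 and CD68) and 3 lower (PDGFRB, LYZ and VWF), beside 6.71% and 6.54% of all tested genes. The sum of all 11, nearly all of it LYZ, was 2159 to 2363 CPM with vehicle and 1717 to 1878 CPM with glycine. COL1A2, COL3A1, DCN, PTPRC and KDR were too low to test. The part of these markers in the changes of the replication genes was not tested. For depth, the only check was a fit with each library thinned to the smallest total. In it 15 members were called higher, among 873 genes higher and 996 lower in all. These included all 14 calls of the main fit, and the median log2 change of the members was 0.16.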

How the data were processed

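RNA of 3 vehicle and 3 glycine libraries of HepG2 cells was sequenced. The deposited files hold raw whole-number counts per gene, 1 file per library, made by the authors, per the submitters' processing notes, with Trimmomatic 0.36, STAR 2.5.2b and featureCounts of Subread 1.5.2 on GRCh38. The strand setting, the handling of reads with several matches and the annotation release are not given in the sources used here, so reads of overlapping and antisense genes could be shared. Symbols came from GENCODE 29, which held 56898 of the 57500 genes. Of the 50 members, 48 had the same start and end there.

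Counts were tested with edgeR 4.0.16 (R 4.3.3; quasi-likelihood, two-sided, group alone, TMM scaling, expression filter at a minimum count of 10 and total of 15), with Benjamini-Hochberg adjustment over 15492 genes and a threshold of 0.05. The standard error is the log2 change over the square root of F. Levels per length used the length column of the files. The scripts were tested on simulated data. Totals ran from 31795489 to 58815986 counts, and 3 counts were worth 0.051 to 0.0943 CPM (counting error only). The lowest member value was 47 counts, and pseudogenes of a member held at most 0.0731% of its counts. Replicates of a group differed by a chi-square of 6.97 to 26.8 per degree of freedom, so none was a duplicate.

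The members, the lists and the tests were chosen with earlier results of these data known. The genes named are all members and, in each of the 4 other lists, the 4 smallest p-values, besides RRM2B and the markers. Of these, 2 are not reported here. Promoters are shown for the 3 members with the smallest p outside chromosome 8, in pieces of at most 30 bases where the window overlaps an exon, and 1 piece of RRM2 is left out. The first listed start was used for 9 members with several. Alternatives were DESeq2 1.42.0, limma 3.58.1 with voom, other scalings, other filters, removal of a gene length trend (loess, span 0.5), thinned libraries, the replicate number as a block, and fits that each left out 1 library. Same-numbered libraries were not treated as pairs in the main fit. The correlations of their deviations from the group means were -0.0577, -0.0268 and -0.00258. Those of differently numbered libraries ran from -0.198 to 0.214. The study states for its cell-based assays that control and treated samples were run together on each experimental day. These correlations cannot show which libraries shared a day.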

Additional observations from a re-analysis of the deposited data

How the results depend on the processing

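The median change of the members stayed between 0.14 and 0.18 under all 17 alternatives, and 0 members were called lower in any. Outside the fits that left out a library, from 13 to 18 members were called higher, against 14, and 12 of the 14 calls held in all of those 11 fits. Over all tested genes, the same fits called 866 to 1221 higher, against 1040. CDT1 was lost with DESeq2 size factors (adjusted p = 0.0525), and CDT1 and LIG1 with the replicate number as a block (0.0634 and 0.0517). Among the genes of the other lists named, ORC3 (0.0536) and TFDP2 (0.0684) were also not called with the block. The block gave 13 members higher, with 866 genes higher in all. With the length trend removed as well it gave 17, with 1191 in all. Which libraries shared a day is not given, so the block may not follow the days. MCM5, MCM7, POLD1, RRM1 and RRM2 kept their calls in every alternative, and no call changed sign. MCM4, MCM6, GINS3, PRIM1 and RPA2, just over the threshold at 0.0502 to 0.0637, passed it in some.

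Leaving out a library, with fewer samples, gave 6 to 14 members called higher. Over all tested genes it gave 587 to 926 higher and 655 to 1010 lower, in other replication genes 0 to 3 higher, in other nucleotide supply genes 1 to 3, in mitosis genes 3 to 8, and in the other E2F and RB genes 1 to 2 higher and 0 to 1 lower. The 1 lower call in that last list, TFDP2, became 0 with the length trend removed, with no filter, and with the replicate block with or without the length correction, and the cause was not tested. Total count scaling, which moved the median of all genes by 0.014, gave 18 members higher, with 1149 genes higher and 906 lower in all, against 1040 and 1013.

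Changes of sign were seen in 9 uncalled members near 0. CCNE2 was at -0.0369 with thinned libraries. Leaving out each library in turn, the log2 change ran from -0.0688 to 0.237 for CCNE2, from -0.0915 to 0.114 for GINS1, from -0.0045 to 0.0782 for CDC6, from -0.0511 to 0.00411 for MCM3, from -0.0302 to 0.115 for PRIM2, from -0.0166 to 0.177 for POLE, from -0.0291 to 0.0627 for CHAF1A, from -0.15 to 0.0187 for UHRF1 and from -0.00216 to 0.106 for CLSPN.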
